A study of Mus musculus with 12 samples.

Results

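The genes described here are 10 genes of antigen presentation, measured in livers of Lcorl KO and WT mice. They were taken by name from a table of 17714 genes: the class I heavy chains H2-K1 and H2-D1, their partner B2m, the peptide-loading genes Tap1, Tap2 and Tapbp, the class II chains H2-Aa, H2-Ab1 and H2-Eb1, and the invariant chain Cd74. The choice was made with earlier results of these data known, and all 10 were present and passed the filter on low values. RNA-seq had been made from livers of 12 female mice, 6 Lcorl KO and 6 WT, all killed at the age of 3 weeks, when they were weaned, at about 10 am. The KO lacks Lcorl, a gene for a ligand-dependent corepressor-like protein, in the whole body, so a difference can arise in any liver cell or outside the liver. The labels give neither the strain nor the deleted bases, and name no treatment in either group.

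Libraries held 27692285 to 31296485 reads assigned to genes in KO livers and 21769795 to 28655120 in WT livers. These totals were recovered from the normalized counts, with the smallest value above 0 in each library taken as 1 read. Lcorl, the targeted gene, had 0.471 ± 1.15 normalized counts in KO livers and 275 ± 26.5 in WT livers (SD, n = 6 each), and all of its KO reads came from KO 5. The hepatocyte markers, which check the labelled tissue, summed to between 2789900 and 3620020 normalized counts in KO livers and 3286270 and 3629990 in WT livers. The library WT 6 also held the fat transcript Adipoq at 53.4 normalized counts, and KO 2 held the pancreas transcript Reg1 at 126. Animal numbers in the labels fall into 4 runs of neighbouring numbers, 1 of which holds WT livers only. Whether a run marks a litter or a day is not given.

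Class I molecules carry peptides cut by the proteasome in the cytosol to the surface of nearly all nucleated cells, where CD8 T cells read them. Their heavy chain needs beta-2-microglobulin to fold, the TAP transporter to bring peptides into the endoplasmic reticulum, and tapasin to hold it open for loading. Class II molecules carry peptides from the endosome to CD4 T cells, and in liver they are known mainly from dendritic cells, B cells, Kupffer cells and endothelium rather than from hepatocytes. NLRC5 for class I and CIITA for class II act through a shared promoter module made of X and Y boxes, and interferon gamma raises both classes through IRF1 among other factors.

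That module is spelled out below for the heavy chains, B2m, H2-Aa and H2-Eb1, although in H2-Eb1 only its Y box was found. RefSeq promoters on GRCm38.p6 were at hand for 7 of the 10 genes, each reaching from 250 bases before to 50 bases after the start site. No promoter was at hand for Tap2, H2-Ab1 or Cd74, so these were not searched. Both strands were searched for the core of the X2 box, TGACG, for the Y box, ATTGG, and for the interferon regulatory factor element AANNGAAA. Capitals mark the X2 core and Y box of the pair, or the Y box alone in H2-Eb1, and the interferon regulatory factor elements. In H2-Aa the X2 core overlaps the same core read on the other strand, which is not capitalised. The H2-D1 stretch is kept to the module itself, since a longer annotated transcript runs across it.
H2-K1: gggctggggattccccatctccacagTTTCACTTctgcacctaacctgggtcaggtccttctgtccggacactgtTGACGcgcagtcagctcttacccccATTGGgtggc
H2-D1: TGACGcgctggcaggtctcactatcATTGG
B2m: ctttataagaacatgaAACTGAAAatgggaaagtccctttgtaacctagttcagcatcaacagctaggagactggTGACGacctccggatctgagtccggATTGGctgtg
H2-Aa: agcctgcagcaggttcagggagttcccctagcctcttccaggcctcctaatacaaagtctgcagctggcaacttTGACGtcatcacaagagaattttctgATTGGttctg
H2-Eb1: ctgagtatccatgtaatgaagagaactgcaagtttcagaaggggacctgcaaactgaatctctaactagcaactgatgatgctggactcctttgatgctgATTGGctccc

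These stretches lie at chr17:34000354-34000463 on the minus strand for H2-K1, chr17:35262993-35263022 on the plus strand for H2-D1, chr2:122147534-122147643 on the plus strand for B2m, chr17:34287862-34287971 on the minus strand for H2-Aa and chr17:34305708-34305817 on the plus strand for H2-Eb1. In H2-K1, H2-D1 and B2m the X2 core was followed by the Y box with 20 bases between them, and in H2-Aa with 21 bases. A spacing of 18 to 22 bases was found in 0.268% of 32851 mouse promoters of the same length, against 20.8% with an X2 core, 37.4% with a Y box and 23.9% with an interferon regulatory factor element anywhere. H2-Eb1 and Tapbp held no X2 core in these letters, which says only that the letters are not in this window. Tap1 held 1 X2 core and 1 Y box but no such pair in the direction of the gene. The opposite direction was searched for the pair only in the background share, not in these genes. The interferon regulatory factor element stood upstream of the X2 core in H2-K1, read on the other strand as TTTCACTT, and in B2m as AACTGAAA. The promoters of H2-D1 and H2-Aa also held 1 such element each, outside the stretches printed.

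None of the 10 genes passed the test between KO and WT livers. The test was limma on log2(normalized count + 1), two-sided, with p-values adjusted by the Benjamini-Hochberg method over 13569 genes and a threshold of 0.05, and it called 601 of those genes, or 4.43% of them (1.75% higher and 2.68% lower in KO livers). For the 10 genes 6 estimates were higher and 4 lower in KO livers, with a median log2 fold change of 0.08, against 0.01 over all tested genes. At an unadjusted p under 0.05, 1 of the 10 passed, H2-K1, while 23.4% of all genes did. For none of the 10 were the KO and WT ranges apart, as they were for 2.96% of all genes. edgeR and DESeq2 on the recovered reads also called 0 of 10, with 4.10% and 8.68% of genes called. The authors' deposited table repeats the p-values of that DESeq2 fit and is no separate check: they differed by at most 2.05e-06. Its log2 fold changes differ in size, at 0.0397 for Cd74 against 0.343 from DESeq2 here, and only its adjusted p-values are used below. Its adjusted p-values for these genes ran from 0.137 to 0.945.

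**Figure D1:**
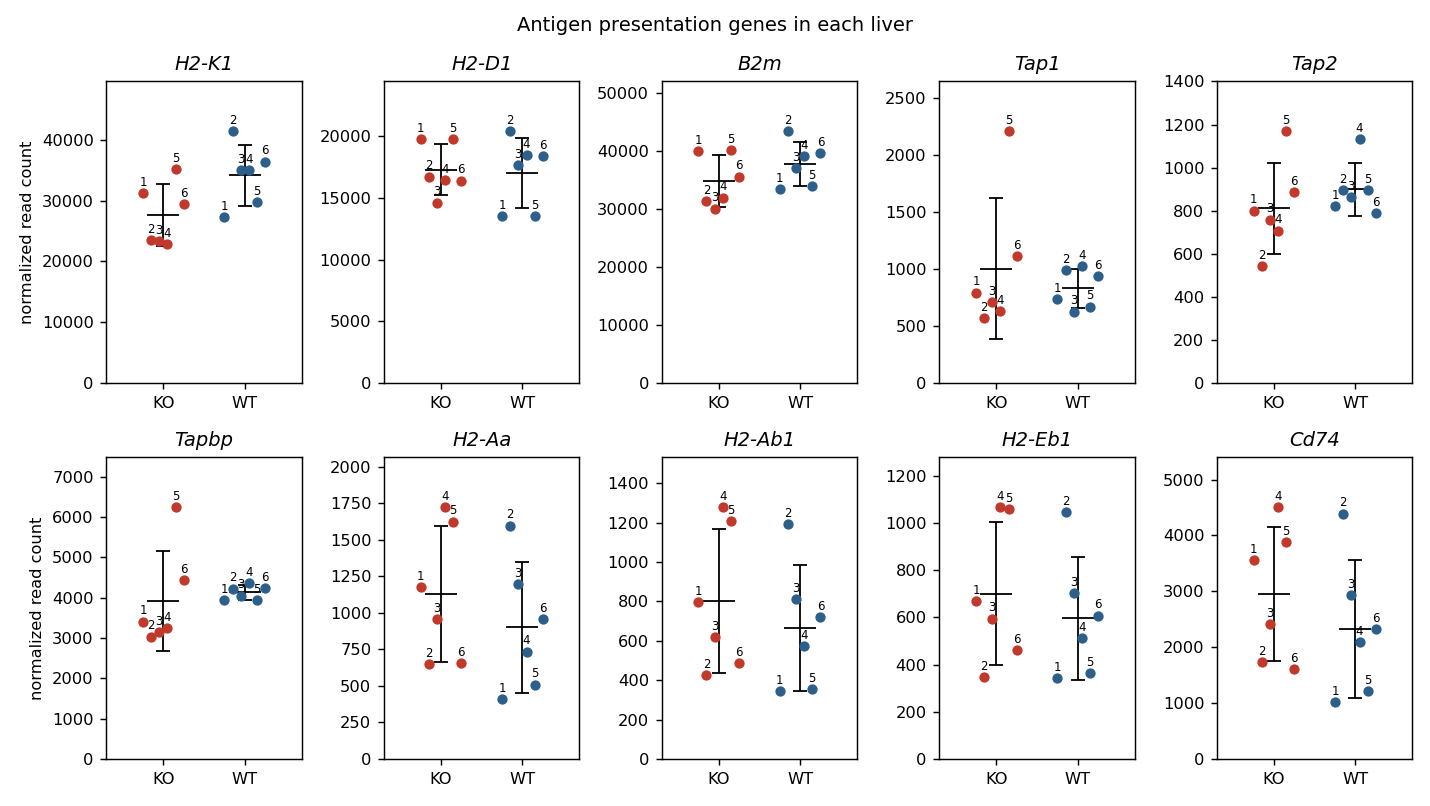
Normalized read count of each of the 10 genes in each liver, KO left of WT, with the mean and SD (n = 6 each) beside the points. The ranges of KO and WT overlap for each gene, KO 5 stands at 2207 for Tap1, and the class II chains and Cd74 are spread widely in both genotypes.

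H2-K1, a classical class I heavy chain (chromosome 17, from 33996017 to 34000347, minus strand, GRCm38), had the lowest p of the 10 genes. Its normalized count was 22847 at the lowest, 26464 at the median and 35127 at the highest in KO livers, and 27330, 34975 and 41368 in WT livers. KO 2, KO 3 and KO 4 lay below every WT liver, and the other 3 KO livers lay inside the WT range. The log2 fold change was -0.31 with an SE of 0.132 and a 95% interval from -0.60 to -0.03 (limma, adjusted p = 0.174). With the runs of animal numbers as a block it was -0.17 (adjusted p = 0.543).

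H2-D1, the other classical heavy chain (chromosome 17, from 35262730 to 35267499, plus strand), had 14619, 16589 and 19755 normalized counts at the lowest, the median and the highest in KO livers, and 13508, 18040 and 20386 in WT livers. The KO range lay wholly inside the WT range. Its log2 fold change was 0.03 (95% interval -0.22 to 0.29, limma adjusted p = 0.904), an interval that reaches from a 1.16-fold lower to a 1.22-fold higher level.

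B2m, the light chain shared by all class I molecules (chromosome 2, from 122147686 to 122153083, plus strand), had 30130, 33831 and 40220 normalized counts at the lowest, the median and the highest in KO livers, and 33502, 38157 and 43441 in WT livers. KO 2, KO 3 and KO 4, the livers lowest in H2-K1, were again below every WT liver. Its log2 fold change was -0.12 (95% interval -0.34 to 0.10, limma adjusted p = 0.517). B2m shared no 50-base stretch with another gene's transcripts, whereas 8.79% of such stretches of H2-K1 and 14.3% of those of H2-D1 recur in other genes, mostly in each other or in the H2-Q and H2-T genes. These shares leave out the heavy chain gene H2-L, which has counts here but is absent from the annotation that was searched. They therefore set no upper limit on the uncertainty of the heavy chain counts, and the haplotype of these mice is not given in the labels.

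The ratio of the heavy chains separated the livers by genotype, although neither chain passed the test. The count of H2-K1 over that of H2-D1 in the same liver was 1.59 ± 0.173 in KO livers and 2.02 ± 0.100 in WT livers (SD, n = 6 each). It ran from 1.39 to 1.79 in KO livers and from 1.90 to 2.20 in WT livers, so the ranges did not overlap, and the log2 difference was -0.35. This pair was picked after all 45 pairs of the 10 genes had been seen, so no p is given. It was the 1 pair of the 45, or 2.22%, whose ranges were apart, against 3.33% of all pairs of tested genes, a share no higher than the background.

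Within the run of animal numbers that holds KO 1 and WT 1 the ratio was 1.58 in the KO and 2.02 in the WT liver. In the run with 3 KO livers and 1 WT liver it was 1.39 to 1.60 in KO and 1.90 in WT, and in the run with 2 of each it was 1.78 to 1.79 in KO and 1.98 to 2.20 in WT. As the ranges over all livers were already apart, KO had to be lower in each of these 3 runs, which adds no support. The fourth run has no KO liver. Counts assigned to H2-L, a heavy chain gene with no position in the annotations used here, followed H2-D1 closely, with a ratio of H2-D1 to H2-L of 1.66 ± 0.0383 in KO livers and 1.67 ± 0.0735 in WT livers. Whether H2-D1 and H2-L were given the same reads was not tested. The counts of H2-Q6 and H2-Q8 were identical in each liver, as were those of H2-Q7 and H2-Q9. Over B2m, the ratio ranges overlapped for H2-K1, at 0.786 ± 0.0563 in KO and 0.899 ± 0.0499 in WT livers, and for H2-D1, at 0.496 ± 0.0247 in KO and 0.447 ± 0.0359 in WT livers.

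**Figure D2:**
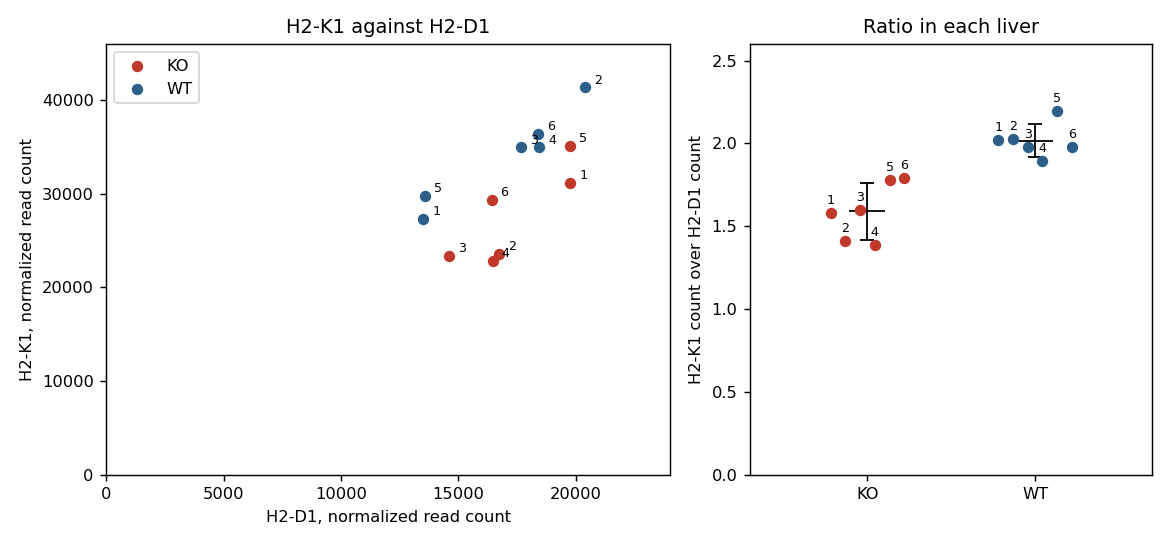
Left, the normalized count of H2-K1 against that of H2-D1 in each liver, KO and WT in separate colours. Right, the ratio of the counts in each liver, KO left of WT, with the mean and SD (n = 6 each); KO livers lie between 1.39 and 1.79 and WT livers between 1.90 and 2.20.

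Of 15 other class I heavy chains tested, 0 rose, 1 fell and 14 did not pass the test, and their median log2 fold change was -0.12. Over all tested genes 1.75% rose and 2.68% fell. H2-Q1, a gene of the Q region, fell to 807 ± 228 normalized counts in KO livers, against 1339 ± 265 in WT livers (SD, n = 6 each; log2 fold change -0.75, SE 0.175, limma adjusted p = 0.0323). Its call was lost without any of KO 1, KO 2, KO 4, WT 2, WT 3, WT 4 or WT 5, at adjusted p-values up to 0.0803, and with the runs as a block, at 0.0789. It was also lost with WT 6 and KO 2 both left out, at a limma adjusted p of 0.0553. H2-Q10, known in mice as a class I chain secreted by the liver, is named after its values were seen, because it was the 1 gene of this list whose ranges were apart. Ranges were apart for 2.96% of all tested genes. H2-Q10 had 21628, 31346 and 45259 normalized counts at the lowest, the median and the highest in KO livers, and 45339, 49365 and 55971 in WT livers, with an adjusted p of 0.0640 from limma and 0.0265 in the authors' deposited table. KO 1, KO 2 and KO 4 were the low livers, between 21628 and 23990, and KO 3 and KO 6 lay just under the WT range.

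Tap1 encodes a subunit of the peptide transporter (chromosome 17, from 34187553 to 34197225, plus strand). It had 570, 754 and 2207 normalized counts at the lowest, the median and the highest in KO livers, and 627, 838 and 1026 in WT livers. The value of 2207 came from KO 5, and the next KO liver, KO 6, had 1111. KO over WT, the log2 fold change was 0.13 (95% interval -0.48 to 0.73, limma adjusted p = 0.841) and turned to -0.14 without KO 5.

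Tap2, the other transporter subunit (chromosome 17, from 34203527 to 34216321, plus strand), had 543, 780 and 1168 normalized counts in KO livers at the lowest, the median and the highest, and 787, 879 and 1134 in WT livers. KO 5 was again highest, and WT 4 stood apart among WT livers. This gave a log2 fold change of -0.18 (95% interval -0.50 to 0.15, limma adjusted p = 0.519). It was -0.29 without KO 5, -0.07 without KO 2 and -0.11 without WT 4, in no case past the threshold.

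Tapbp encodes tapasin, which tethers the heavy chain to the transporter (chromosome 17, from 33915899 to 33929292, plus strand). It had 3035, 3330 and 6249 normalized counts at the lowest, the median and the highest in KO livers, and 3937, 4139 and 4371 in WT livers. The WT livers were close together, with a coefficient of variation of 4.29%, while KO livers had 31.8%: KO 1, KO 2, KO 3 and KO 4 lay below every WT liver, and KO 5 and KO 6 lay above them. The mean difference was small against that spread, with a log2 fold change of -0.12 (95% interval -0.45 to 0.20, limma adjusted p = 0.670). It was -0.27 without KO 5 (adjusted p = 0.106) and -0.06 without KO 2.

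The libraries' strand setting is not given, so reads of genes that overlap on opposite strands cannot be told apart. Tap1 shares 212 exon bases with the oppositely placed Psmb9, and Tapbp shares 904 with the antisense gene Gm19412 and 149 with Zbtb22 on its own strand. Of the 9 genes listed for peptide transport and loading, which include B2m and the TAP and tapasin genes, 0 passed the test. The lowest p outside the 10 genes belonged to Canx, for the chaperone calnexin, with 12455 ± 1210 normalized counts in KO and 13833 ± 691 in WT livers (SD, n = 6 each; limma adjusted p = 0.212).

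None of the 6 immunoproteasome and activator genes passed either, with a median log2 fold change of 0.00. Psmb9, a catalytic subunit of the immunoproteasome, had 229 to 1494 normalized counts in KO livers and 408 to 740 in WT livers. Psmb8, another such subunit, had 780 to 2343 in KO livers and 876 to 1467 in WT livers. Psmb10, the last of these subunits, had 963 to 2554 in KO livers and 1125 to 1578 in WT livers. KO 5 was the highest and KO 2 the lowest KO liver for each. Psme3, for a proteasome activator subunit, had 1584 ± 119 normalized counts in KO and 1738 ± 129 in WT livers (SD, n = 6 each; limma adjusted p = 0.249). Among the 3 constitutive catalytic subunits 0 passed. Psmb5 had 1225 ± 49.4 in KO and 1358 ± 81.1 in WT livers (limma adjusted p = 0.125). It passed without WT 6, at 0.0469, and without both WT 6 and KO 2, at 0.0358. Psmb7 had 3156 ± 198 in KO and 3323 ± 226 in WT livers (limma adjusted p = 0.502).

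The class II genes had higher estimates in KO livers for 4 of 4, none of them past the test, and they were spread widely in both genotypes. H2-Aa, the alpha chain of the A molecule (chromosome 17, from 34282744 to 34287823, minus strand), had 650, 1066 and 1723 normalized counts at the lowest, the median and the highest in KO livers, and 407, 846 and 1596 in WT livers. The WT range covered nearly all of the KO range. For H2-Aa the log2 fold change was 0.38 (95% interval -0.37 to 1.12, limma adjusted p = 0.560).

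H2-Ab1, the beta chain that pairs with it (chromosome 17, from 34257689 to 34269419, plus strand), had 427, 707 and 1278 normalized counts at the lowest, the median and the highest in KO livers, and 346, 646 and 1193 in WT livers. Its log2 fold change was 0.28 (95% interval -0.46 to 1.03, limma adjusted p = 0.675). H2-Eb1, the beta chain of the E molecule (chromosome 17, from 34305867 to 34316674, plus strand), had 346, 633 and 1068 in KO livers, and 343, 559 and 1047 in WT livers. For both chains KO 4 and WT 2 were the highest livers of their genotype, and the ranges overlapped almost fully. The log2 fold change of H2-Eb1 was 0.22 (95% interval -0.46 to 0.91, limma adjusted p = 0.731).

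Cd74, whose product, the invariant chain, fills the class II groove until the endosome and guides the molecule there (chromosome 18), had 1604, 2986 and 4506 normalized counts at the lowest, the median and the highest in KO livers, and 1011, 2204 and 4392 in WT livers. KO 4 was again the highest KO liver and WT 2 the highest WT liver, and KO 6 and WT 1 were the lowest. The log2 fold change was 0.41 (95% interval -0.37 to 1.19, limma adjusted p = 0.542), an interval that reaches from a 1.29-fold lower to a 2.27-fold higher level. Leaving out WT 1 gave 0.20 for Cd74 and leaving out WT 2 gave 0.63. With the runs of animal numbers as a block the class II estimates were larger, at 0.77 for Cd74, 0.75 for H2-Aa, 0.63 for H2-Ab1 and 0.55 for H2-Eb1, with adjusted p-values from 0.288 to 0.414. The highest liver exceeded the lowest by 2.65 to 3.08 times across the 4 class II genes in KO and by 3.05 to 4.34 times in WT livers. Their coefficients of variation ran from 40.8% to 45.5% in KO and from 43.8% to 53.2% in WT livers, against medians over all tested genes of 14.7% in KO and 13.0% in WT.

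Of the 9 other class II and endosomal genes tested, 1 rose and 8 did not pass, where 1.75% of all tested genes rose. Ctsl, for the endosomal protease cathepsin L, rose to 27251 ± 2910 normalized counts in KO livers, against 21305 ± 1523 in WT livers (SD, n = 6 each; log2 fold change 0.35, limma adjusted p = 0.0372). Leaving out any library other than KO 3, KO 6 or WT 6 took its adjusted p above 0.05, up to 0.0875, and the runs as a block gave 0.179. The call was also lost with no filter on low values, at 0.0501, and with WT 6 and KO 2 both left out, at 0.0525. H2-DMa and H2-DMb1, the chains of the class II peptide exchange factor, had 106 to 417 and 89.1 to 294 normalized counts in KO livers, and 115 to 329 and 68.2 to 212 in WT livers. Both ranges overlapped, as for the classical chains.

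In bulk liver, fewer cells of a type and less RNA per cell cannot be told apart. Of the marker lists, 0 genes passed the test in any. The 5 general leukocyte markers summed to 2423 to 4082 normalized counts in KO and 2214 to 3450 in WT livers. The 9 Kupffer cell markers summed to 27515 to 36199 in KO and 21954 to 37020 in WT livers, the 9 dendritic cell markers to 322 to 444 in KO and 331 to 464 in WT livers, and the 6 B cell markers to 149 to 391 in KO and 214 to 389 in WT livers. None of these markers was at 0 in any liver.

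Per kilobase of exon, the order of the levels was B2m, H2-K1, H2-D1, Cd74, Tapbp, H2-Eb1, H2-Ab1, H2-Aa, Tap2 and Tap1 in KO livers. The length used was that of all annotated exons merged, at 3798 bases for H2-Aa, 2568 for H2-Ab1 and 1944 for H2-Eb1. Their longest coding transcripts have 1128, 1212 and 1669 bases, so the order of these chains depends on the length used. In normalized counts per kilobase B2m had 40595 ± 5160 in KO and 43984 ± 4364 in WT livers, H2-K1 had 9388 ± 1732 in KO and 11620 ± 1695 in WT livers, and H2-D1 had 6702 ± 795 in KO and 6590 ± 1097 in WT livers (SD, n = 6 each). Cd74 followed at 1756 ± 716 in KO and 1385 ± 737 in WT livers, and Tapbp at 1081 ± 344 in KO and 1138 ± 48.8 in WT livers. The last 5 genes lay between 183 and 360 in KO and between 152 and 306 in WT livers, and overlapped within their SDs, except that Tap1, at 152 ± 31.5, stood below its neighbours Tap2, at 238 ± 32.4, and H2-Aa in WT livers by more than its own SD. By merged exon length H2-Ab1 stood before H2-Aa in both genotypes, and Tap2 and H2-Aa, at 238 and 237 in WT livers, changed places.

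Across livers the 10 genes moved in 3 blocks. The deviation of each liver from the mean of its genotype, on the log2 scale, correlated at r = 0.86 to 0.96 among H2-K1, H2-D1 and B2m, at 0.83 to 0.95 among Tap1, Tap2 and Tapbp, and at 0.95 to 0.99 among the class II chains and Cd74 (n = 12 livers). Between blocks r was lower, at 0.34 to 0.76 for heavy chains with loading genes, 0.58 to 0.77 for heavy chains with class II genes and 0.18 to 0.40 for loading genes with class II genes. All values of a liver share 1 library and 1 scaling factor.

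The blocks differed in which livers were high. KO 5 was 0.87 above its genotype's mean on the log2 scale for the loading genes, 0.64 for class II and 0.26 for the heavy chains. KO 4 was 0.74 above for class II and 0.29 below for the loading genes. Among WT livers, WT 2 was 0.99 above for class II and 0.10 above for the loading genes, and WT 1 was 0.88 below for class II.

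KO 5 also stood apart in an interferon-inducible GTPase: Igtp had 11165 normalized counts in KO 5, against 910 to 3842 in the other KO livers and 1659 to 3346 in WT livers. Of 17 genes for such GTPases and interferon gamma signalling, 0 passed the test between genotypes, with a median log2 fold change of 0.03.

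**Figure D3:**
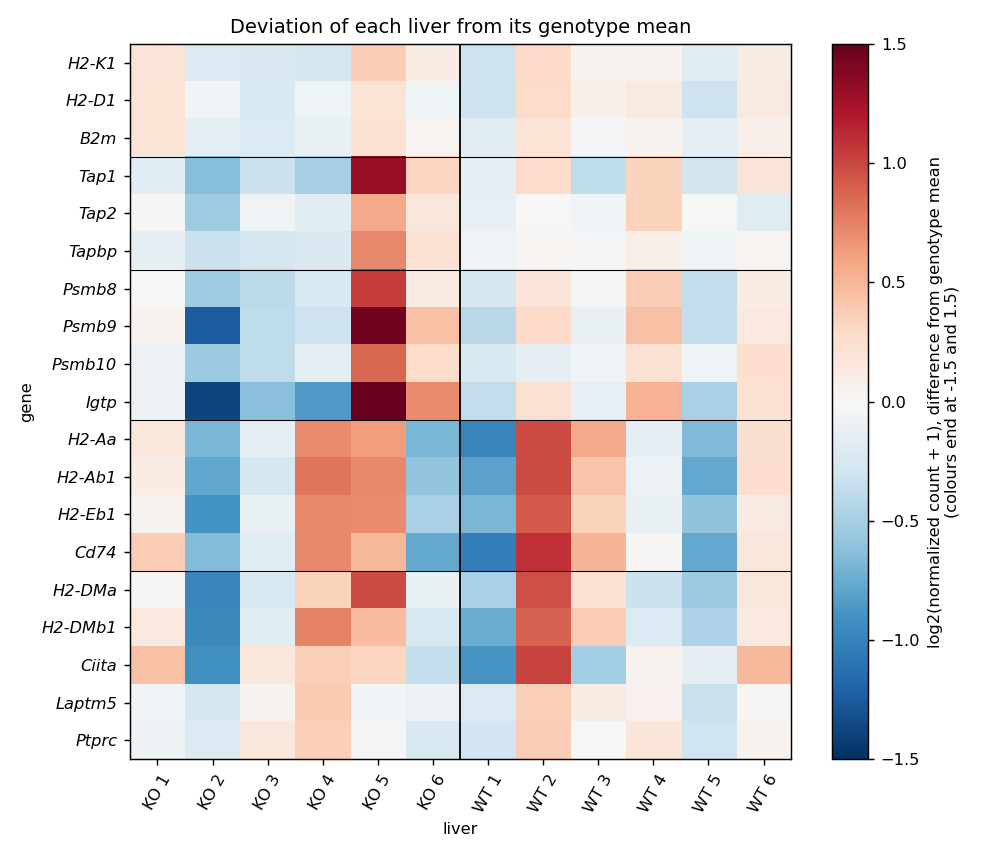
Each cell is 1 gene in 1 liver, coloured by its log2(normalized count + 1) minus the mean of its genotype, with KO livers left of WT livers. KO 5 is high for Tap1, the immunoproteasome genes and Igtp, whereas KO 4 and WT 2 are high for the class II block, and the colour scale is cut off for Igtp in KO 5.

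Correlations over the 12 livers, on the log2 scale, are given for 6 pairs of genes as a description. The pairs were chosen after these patterns were seen, so no p is given. H2-Aa and Cd74 had Pearson's r = 0.988 and Spearman's rho = 0.972, and r = 0.978 without the 2 livers farthest from the median. Cd74 and Ciita, the class II master activator, had r = 0.768 and rho = 0.762, and r = 0.872 without 2 livers. Cd74 and the leukocyte marker Laptm5 had r = 0.855 and rho = 0.902, and r = 0.822 without 2 livers. Laptm5 had 1301 ± 208 normalized counts in KO and 1150.0 ± 195 in WT livers (SD, n = 6 each; limma adjusted p = 0.407), and its part in the class II spread was not tested.

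H2-K1 and B2m had r = 0.942 and rho = 0.916, and r = 0.906 without 2 livers. Tap1 and Psmb9 had r = 0.929 and rho = 0.853, and r = 0.888 without 2 livers, 1 of them KO 5. H2-K1 and Nlrc5, the class I activator, had r = 0.278 and rho = 0.448, and r = 0.439 without 2 livers; r was 0.887 within KO and 0.232 within WT livers (n = 6 each), a difference that was not tested. After run and genotype had been fitted, r of the residuals was 0.990 for H2-Aa with Cd74, 0.849 for Cd74 with Ciita, 0.785 for Cd74 with Laptm5, 0.976 for H2-K1 with B2m and 0.919 for Tap1 with Psmb9. For H2-K1 with Nlrc5 it was 0.854, well above the pooled value.

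**Figure D4:**
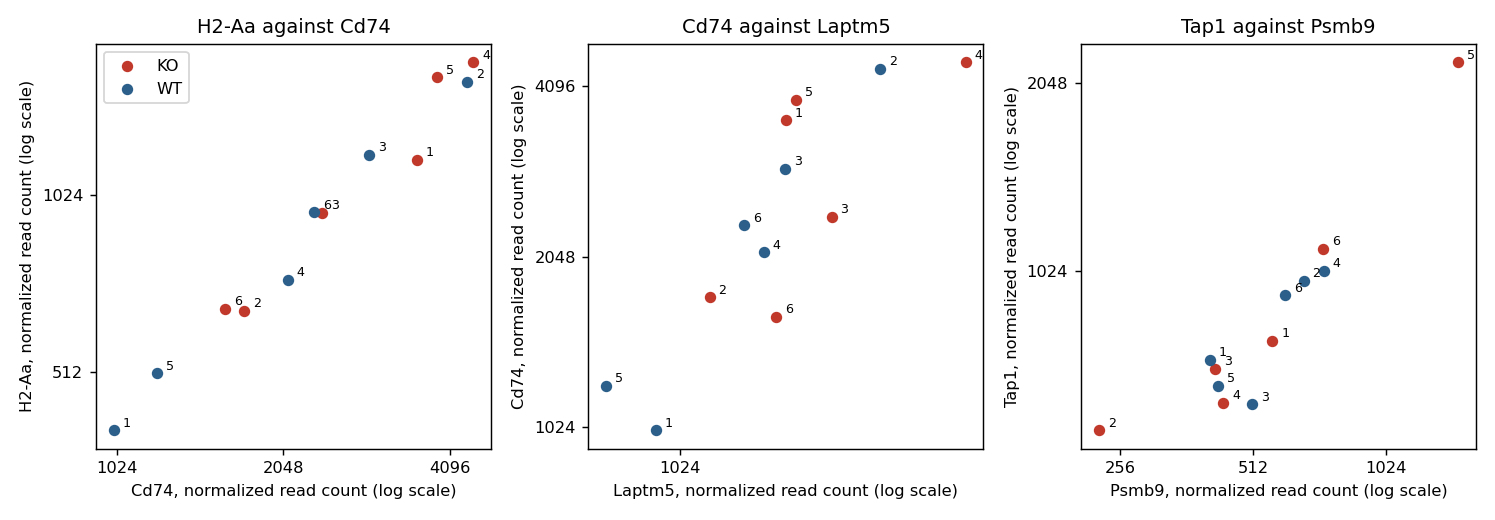
Normalized read counts of 3 gene pairs in the 12 livers on log axes, KO and WT in separate colours, with the liver's number beside each point. H2-Aa rises with Cd74 in both genotypes, Cd74 with Laptm5 more loosely, and Tap1 with Psmb9, where KO 5 lies at 2207 and 1494, away from the rest.

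Genes outside the lists were ranked by how closely their deviations followed those of each class over the 12 livers, as a description. Nearest to the class II block was Mir5107 (r = 0.976), whose annotated hairpin lies inside Cd74 on the same strand, so that its reads may be those of Cd74. Next came Gbp2b, a guanylate-binding protein (0.917), Fgl2 (0.903), Tyrobp, an adaptor of myeloid and natural killer cell receptors (0.896), and Fermt3, an integrin activator of blood cells (0.874). Nearest to the class I chains and loading genes were Samhd1, a dNTP hydrolase (0.914), the cytokine Il18 (0.910), Rgs12 (0.908), Uba7, which activates ISG15 (0.906), and Zbp1, a sensor of Z-form nucleic acids (0.899). For each of these, as for Tap1, KO 5 was the highest KO liver. No r without KO 5 is given here or for the lists that follow. An r above 0.8 was reached by 0.457% of 13559 genes for class II and by 0.531% for class I.

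By list, the immunoproteasome genes had a median r of 0.919 with the class I and loading genes and 0.348 with class II. The general leukocyte markers had 0.283 with class I and loading and 0.819 with class II, and the Kupffer cell markers 0.386 and 0.768. In the same order, T and natural killer cell markers had 0.583 and 0.642, and dendritic cell markers 0.193 and 0.610. Monocyte and neutrophil markers had -0.104 and 0.401, B cell markers 0.180 and 0.272, and sinusoidal endothelial markers 0.200 and 0.0098. Hepatocyte markers had -0.05 with class I and loading and 0.09 with class II.

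Among 14 transcription factors of these pathways, 1 rose, 1 fell and 12 did not pass, with a median log2 fold change of 0.11. Over all tested genes 1.75% rose and 2.68% fell. Irf1, an activator of class I and interferon genes, rose to 1206 ± 165 normalized counts in KO livers, against 848 ± 149 in WT livers (SD, n = 6 each; log2 fold change 0.51, limma adjusted p = 0.0330). Irf2, which can compete with Irf1 for the same element, fell to 1140 ± 182 in KO livers, against 1490 ± 148 in WT livers (log2 fold change -0.39, limma adjusted p = 0.0474). Ciita had 52.1 ± 16.5 normalized counts in KO and 29.8 ± 15.0 in WT livers (limma adjusted p = 0.139), and Nlrc5 had 783 ± 199 in KO and 656 ± 110 in WT livers (limma adjusted p = 0.447). The Irf1 call was lost without any of KO 1, KO 3, KO 4, KO 5, WT 1, WT 3, WT 4 or WT 5, at adjusted p-values up to 0.0729. The Irf2 call was lost without any library other than KO 2, KO 5 or WT 6, at up to 0.105. It was also lost in edgeR, at 0.0537, and in limma with no filter on low values, at 0.0533. With the runs as a block the adjusted p was 0.0843 for Irf1 and 0.172 for Irf2.

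The gene nearest the threshold among the interferon gamma signalling genes was the receptor chain Ifngr1, with 1473 ± 115 normalized counts in KO and 1204 ± 133 in WT livers (SD, n = 6 each; limma adjusted p = 0.0511), which passed without KO 2, at 0.0303, or without WT 6, at 0.00972, and was called in the authors' deposited table, at 0.0152. Cxcl9, an interferon gamma-induced chemokine, had 252 ± 103 in KO and 375 ± 52.7 in WT livers (limma adjusted p = 0.120). Of 5 genes for costimulation and checkpoint ligands, 0 passed, and all 5 estimates were higher in KO livers, with a median log2 fold change of 0.54. Icam1, an adhesion ligand for T cells, had 1020 ± 265 in KO and 690 ± 95.5 in WT livers (limma adjusted p = 0.0564) and passed without KO 5, at 0.0354, KO 6, at 0.0488, or WT 6, at 0.0372; the authors' deposited table called it, at 0.0106. Cd274, the checkpoint ligand PD-L1, had 136 ± 43.2 in KO and 82.6 ± 33.8 in WT livers (limma adjusted p = 0.109). With WT 6 and KO 2 both left out, Cd274 passed at a limma adjusted p of 0.0399, Icam1 at 0.0243 and Ifngr1 at 0.00274.

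The H2 region of chromosome 17 also holds genes with other functions. Of 36 of these tested, 2 rose, 2 fell and 32 did not pass, and their median log2 fold change was 0.04. Over all tested genes 1.75% rose and 2.68% fell. Brd2, a reader of acetylated histones, rose to 4242 ± 180 normalized counts in KO livers, against 3378 ± 301 in WT livers (SD, n = 6 each; limma adjusted p = 0.0121), and lost its call only with the runs as a block, at 0.0823, among the 24 alternatives. Pbx2, a homeobox factor, rose to 797 ± 90.4 in KO livers, against 633 ± 33.4 in WT livers (limma adjusted p = 0.0340). Tnxb, for the matrix protein tenascin-X, fell to 407 ± 93.5 in KO livers, against 599 ± 55.2 in WT livers (limma adjusted p = 0.0350). Nelfe, for a subunit of the negative elongation factor, fell to 446 ± 40.6 in KO livers, against 594 ± 84.3 in WT livers (limma adjusted p = 0.0352). The calls of Pbx2, Tnxb and Nelfe were each lost on leaving out any of KO 1, KO 4, WT 1, WT 2, WT 3 or WT 5, and also KO 3 for Pbx2, KO 2 for Tnxb, and KO 2, KO 5 and WT 4 for Nelfe, at adjusted p-values up to 0.0841. With the runs as a block they were lost too, at 0.0848 for Pbx2, 0.103 for Tnxb and 0.0936 for Nelfe, and with equal totals Pbx2 had 0.0652.

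**Figure D5:**
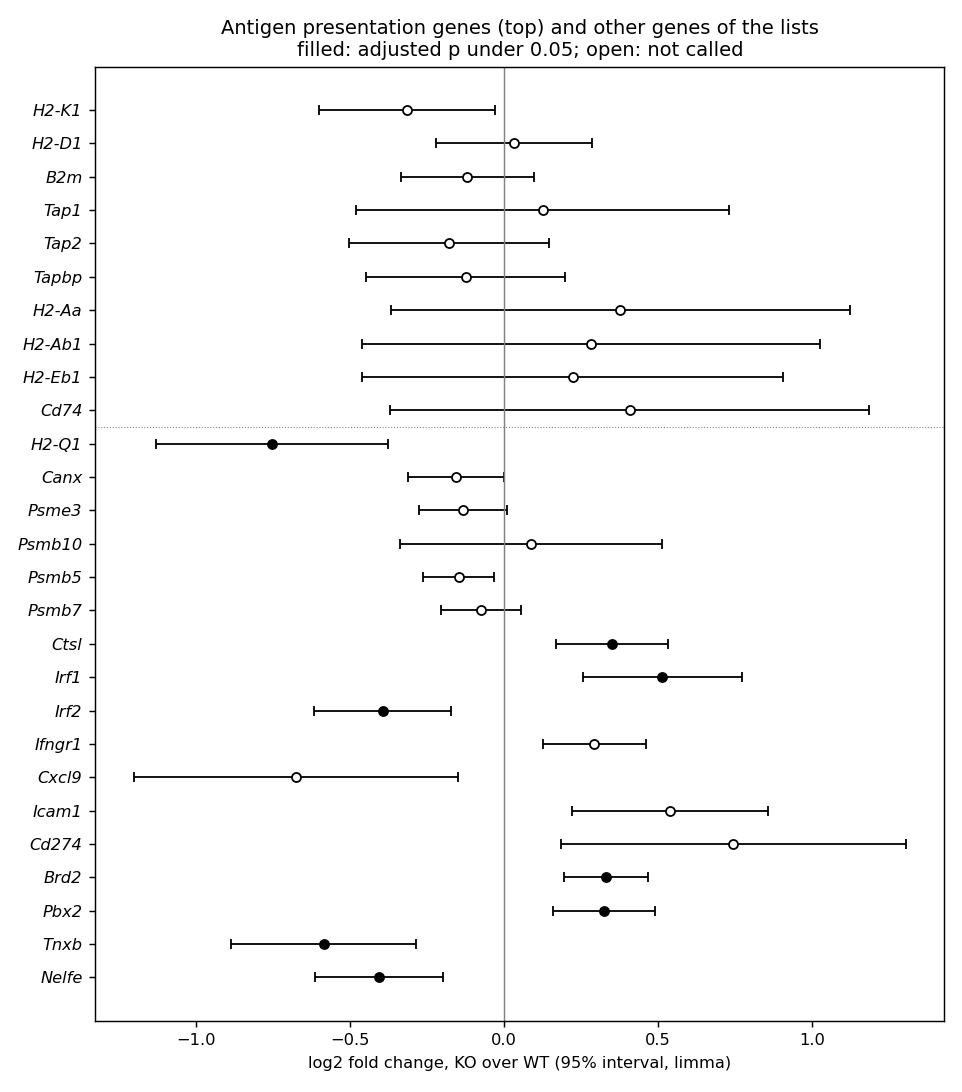
Log2 fold changes of KO over WT livers with 95% intervals from limma, the 10 antigen presentation genes above the dotted line and the other listed genes below it. Filled points passed an adjusted p of 0.05, among them H2-Q1 at -0.75 and Irf1 at 0.51, and all 10 points above the line are open.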

How the data were processed

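TruSeq total RNA libraries were made from the livers of 6 KO and 6 WT mice, per the labels' protocols. STAR, featureCounts, FastQC and DESeq2 are the tools, and mm10 the build, that the submitters' processing notes list; their order, the annotation and whether strand was used in counting are not stated there. The authors deposited a signal per gene, normalized counts, which are reads divided by 1 factor a library: 100% of the values were whole multiples of the library's smallest value, with a tolerance of 0.001, and the factors ran from 0.785 to 1.18. The authors' deposited table of their comparison gives log2 fold changes, their standard errors (entered as a score) and p-values. All 12 columns of the normalized table were matched to a sample by the number in its title, and 0 columns were left over.

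Genes with a mean of at least 10 entered limma 3.58.1 in R 4.3.3, with a trend on log2(normalized count + 1), genotype only, and the recovered reads entered DESeq2 1.42.0 and edgeR 4.0.16 as alternatives. No sample was dropped or imputed. Replicates are separate animals, so the p-values measure the spread between animals. The closing section gives the other alternatives: pseudocounts of 0.5 and 10, no filter and a mean of at least 50, equal totals, equal upper quartiles, robust fits, library weights, runs of animal numbers (a gap of at least 10 starts a run) as a block, each library left out in turn, and WT 6 with KO 2 left out. Genes named are Lcorl, the 10 genes, every listed gene past the threshold or otherwise the 2 with the smallest p of a list, and the 5 nearest in pattern to each class; genes named beside these were chosen after their values were seen. The 10 genes and the lists were chosen with earlier results of these data known. Positions are from GENCODE M21 on GRCm38. Values of 1 listed gene, and 1 correlation with it, are not reported here.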

Additional observations from a re-analysis of the deposited data

Results flagged for a closer look

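In 28 genes, 56 groups of 6 livers were examined for a highest or lowest liver whose gap to its neighbour exceeded Dixon's 95% critical value of 0.625 of the range, and 5 were found, where chance gives about 1 group in 20. Tap1 had 2207 normalized counts in KO 5, against 1111 in the next KO liver. Lcorl had 2.83 normalized counts in KO 5 and 0 in the other KO livers, against 275 ± 26.5 in WT livers. The Lcorl flag rests on 3 reads. With all other KO livers at 0, any count in KO 5 would have been flagged, so it cannot be set against that rate. Tap2 had 1134 normalized counts in WT 4, against 896 in the next WT liver. Psmb7 had 3748 normalized counts in WT 4, against 3359 in the next WT liver. Ifngr1 had 1458 normalized counts in WT 6, against 1204 in the next WT liver.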

How the results depend on the processing

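The count of antigen presentation genes past the threshold was 0 in each of the 24 alternatives, and the lowest adjusted p of any of the 10 genes in any of them was 0.0977. Of 240 values for the 10 genes under these alternatives, 6 changed sign. The log2 fold change of H2-D1 was -0.00071 with library quality weights and ran from -0.029 to 0.089 when 1 library was left out. That of Tap1 ran from -0.14, without KO 5, to 0.25, and that of Psmb10 from -0.085, again without KO 5, to 0.20. Of 672 values for 28 genes, the 10 included, 7 changed sign, 71 lost a call, 17 gained one and 577 kept both; genes named only for their levels or patterns were not among them. The log2 difference of the ratio of H2-K1 to H2-D1, an alternative set chosen after seeing the data, stayed between -0.38 and -0.31 with 1 library left out. Other scalings moved the median of all genes by -0.02 to 0.03 on the log2 scale.

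No paired analysis was possible because the labels give no replicate numbers that KO and WT livers share. With 6 livers a group the 95% intervals of the class II genes span more than a doubling, so differences within them were not detectable.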
